A study of Mus musculus with 2 samples.

Results

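The genes described here are 9 surface molecules through which B cells costimulate T cells or that mark their activation, chosen by name from the 31053 genes counted: Cd80, Cd86, Icosl, Cd274, Pdcd1lg2, Cd40, Cd83, Cd69 and Cd24a. They were measured in B cells of the heart of healthy wild-type C57BL6/J mice. The neonatal library held cells of 6 mice aged 2 weeks, males and females pooled, and the adult library cells of 6 male mice aged 8 weeks. Live B cells were sorted from both ages on 1 day after the same digestion, and each age was sequenced as 1 library with the 10x Genomics Chromium 3′ v3 chemistry, which counts each captured transcript once by its unique molecular identifier (UMI). With 1 library per age, age cannot be told apart from the library or the pool of mice. The share of females also differs between the libraries, and ratios with male neonatal cells alone are given below.

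CD80 and CD86 are the ligands with which an antigen-presenting B cell engages CD28 on T cells, and the same ligands bind the inhibitory receptor CTLA-4. ICOS ligand sustains T follicular helper cells, whereas PD-L1 (encoded by Cd274) and PD-L2 (Pdcd1lg2) restrain T cells through their inhibitory receptor. CD40 receives the helper signal of T cells, CD83 and CD69 appear on lymphocytes soon after activation, and CD24 is abundant on immature B cells of the mouse.

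Cells were droplets with at least 2000 gene UMIs, at most 10% mitochondrial UMIs and at least 1 UMI of Cd79a, a part of the B cell receptor. There were 2077 neonatal and 3611 adult cells, with medians of 6000 and 6131 UMIs and totals of 16403180 and 34623240 UMIs. At least 5 of 6 B cell markers were found in 93.7% of the neonatal and 88.5% of the adult cells. Cells with a UMI of at least 3 of Bhlhe41, Zbtb32, Ctla4, Cd9, S100a6 and Nid1 are called Bhlhe41-set cells, after a transcription factor known from B1 cells. There were 177 such cells in the neonatal library (8.52%, exact 95% interval 7.36% to 9.81%) and 580 in the adult library (16.1%, 14.9% to 17.3%). A deeper cell reaches 3 genes more easily, and the Bhlhe41-set cells had medians of 15881 and 16550 UMIs against 5821.5 and 5150 in the other cells. When each cell was thinned to 2000 UMIs at random, 25 neonatal (1.20%) and 62 adult cells (1.72%) still reached 3 genes. All intervals given are exact 95% intervals that cover counting error only.

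The libraries shared 110 barcodes with at least 500 UMIs in both. Of the neonatal cells 61 stood at such a barcode, 45 of them Bhlhe41-set cells, with a median of 30537 UMIs against 656 UMIs at the same barcodes in the adult library. Of the adult cells 45 did, 39 of them Bhlhe41-set cells, with medians of 58990 and 612 UMIs. Just 2 barcodes were cells in both libraries. Leaving out the shared barcodes therefore took away the deepest cells of the class, and values without them are given beside the results.

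Between the libraries, 4 of the 9 genes were more than 1.5-fold higher in adult cells (Cd80, Cd86, Icosl and Pdcd1lg2) and 1 was more than 1.5-fold lower (Cd274). Over the 10703 genes with at least 50 UMIs, 7.82% were higher and 12.2% lower by that measure, 20.1% in all. The median log2 ratio of adult over neonatal was 0.38 for the 9 genes and -0.13 for all genes. The 4 higher genes and the lower gene were the same ones when cells at shared barcodes were left out. Under median-of-ratios scaling, which raised every log2 ratio of this comparison by 0.15, 4 genes were higher and none lower. The shares of all genes without those barcodes or under that scaling are not given.

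Cd80 stood at 5.91 counts per 1000000 UMIs (CPM) in the neonatal library (4.80 to 7.21, 97 UMIs) and at 11.5 in the adult library (10.4 to 12.7, 398 UMIs). The log2 ratio was 0.96 (0.64 to 1.29). It was 1.45 without the shared barcodes and 0.48 when the adult library was given the neonatal share of Bhlhe41-set cells, which carry most Cd80, an alternative chosen after seeing the data. At no more than 5% mitochondrial UMIs, which left 60 neonatal and 156 adult cells, it was -0.93. Cd86 stood at 119 CPM (114 to 124) in neonatal and 213 (208 to 218) in adult cells. The adult level of this ligand, which resting B cells carry before CD80 appears, was 1.79-fold the neonatal one, with a log2 ratio of 0.84 (0.77 to 0.91). Icosl stood at 16.3 CPM (14.4 to 18.4) in neonatal and 47.7 (45.4 to 50.1) in adult cells. That was a 2.92-fold higher adult level and a log2 ratio of 1.55 (1.36 to 1.74).

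The inhibitory ligands lay on opposite sides. Cd274 stood at 63.9 CPM (60.1 to 67.9) in neonatal cells and at 38.8 (36.7 to 40.9) in adult cells, a log2 ratio of -0.72 (-0.84 to -0.60). Pdcd1lg2 rested on fewer UMIs, with 5.55 CPM (4.47 to 6.81, 91 UMIs) in neonatal and 14.04 (12.8 to 15.3, 486 UMIs) in adult cells. Its log2 ratio was 1.34 (1.01 to 1.68). The genes are neighbours on the same strand of chromosome 19, 22823 bases apart on GRCm38, with Cd274 at chr19:29367455-29388095 and Pdcd1lg2 at chr19:29410919-29471161. Each overlaps a gene on the opposite strand (AC119228.1 and A930007I19Rik), and the sources used here do not state whether counting used the strand. The other genes overlap none in GENCODE M21 on this build. Cd80 (chr16:38455561-38496335, plus strand) and Cd86 (chr16:36603869-36666081, minus strand) lie on the same chromosome, as do Icosl (chr10:78069302-78083913) and Cd24a (chr10:43578284-43584265), both on the plus strand. Cd83 is at chr13:43784775-43803132 and Cd40 at chr2:165055627-165072948 on the plus strand, and Cd69 at chr6:129267325-129275436 on the minus strand.

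RefSeq promoter sequence on GRCm38.p6 was at hand for Cd80, Icosl, Cd274 and Pdcd1lg2, which are 4 of the 5 genes past 1.5-fold and hold the neighbouring pair with opposite ratios. The 250 bases before each RefSeq start are shown, all on the plus strand. The RefSeq starts of Cd80 and Icosl lie inside the GENCODE spans given above. Capitals mark matches on either strand to a short form of the NF-kB motif (GGG and CC with 5 bases of any kind between them), the interferon-response element (TTTC and TTTC with 2 bases of any kind between them), AP-1 (TGANTCA), the GC box (GGGCGG) and the TATA box (TATAAA).
Cd80 chr16:38458683-38458932: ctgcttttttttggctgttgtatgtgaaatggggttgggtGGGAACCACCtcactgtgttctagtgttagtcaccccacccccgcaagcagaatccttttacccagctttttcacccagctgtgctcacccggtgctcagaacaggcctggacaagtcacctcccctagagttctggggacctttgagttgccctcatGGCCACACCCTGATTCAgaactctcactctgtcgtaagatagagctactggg
Icosl chr10:78069118-78069367: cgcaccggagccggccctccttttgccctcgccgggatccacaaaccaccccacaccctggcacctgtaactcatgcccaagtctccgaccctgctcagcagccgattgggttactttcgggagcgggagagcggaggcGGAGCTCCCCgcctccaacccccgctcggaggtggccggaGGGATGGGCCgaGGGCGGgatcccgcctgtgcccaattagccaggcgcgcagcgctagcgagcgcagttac
Cd274 chr19:29367188-29367437: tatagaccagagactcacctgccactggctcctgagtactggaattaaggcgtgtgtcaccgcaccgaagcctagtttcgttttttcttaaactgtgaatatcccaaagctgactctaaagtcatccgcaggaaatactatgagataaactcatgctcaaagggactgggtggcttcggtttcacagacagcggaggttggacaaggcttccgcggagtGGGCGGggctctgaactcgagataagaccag
Pdcd1lg2 chr19:29410669-29410918: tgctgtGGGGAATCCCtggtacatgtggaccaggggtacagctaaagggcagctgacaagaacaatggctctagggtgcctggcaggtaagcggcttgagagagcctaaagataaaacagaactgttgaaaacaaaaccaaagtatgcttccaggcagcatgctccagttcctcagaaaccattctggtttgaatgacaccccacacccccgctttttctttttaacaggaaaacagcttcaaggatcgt

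The short NF-kB form was found at 2 places each in the Cd80 and Icosl windows and at 1 place in that of Pdcd1lg2, and 45.8% of 32851 promoters of the same length hold it. The AP-1 match in Cd80 follows directly on its second NF-kB match, in a run of capitals without a gap. AP-1 letters occur in 6.75% of promoters. The GC box, found in 32.7% of promoters, was matched in the Icosl and Cd274 windows. The interferon element, held by 2.98% of promoters, and the TATA box, held by 12.4%, were matched in none of the 4 windows. Cd86, Cd83, Cd40, Cd69 and Cd24a had no entry.

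The other 4 genes differed by less than 1.5-fold between the libraries. Cd40, the receptor for T cell help, stood at 48.0 CPM (44.7 to 51.5) in neonatal and 62.5 (59.9 to 65.2) in adult cells, a log2 ratio of 0.38 (0.26 to 0.50). Cd83, whose product holds MHC class II and CD86 at the cell surface, stood at 461 and 441 CPM. Its log2 ratio was -0.06 (-0.10 to -0.02), and 0.09 under median-of-ratios scaling. Cd69, whose product keeps activated lymphocytes in tissue, stood at 386 CPM (376 to 395) in neonatal and 306 (301 to 312) in adult cells, a log2 ratio of -0.33 (-0.38 to -0.29). Cd24a, whose product is the heat-stable antigen, stood at 301 and 282 CPM. Its log2 ratio of -0.10 (-0.15 to -0.05) was 0.06 under median-of-ratios scaling, so no direction is given for Cd83 or Cd24a over all cells.

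The share of cells with a transcript moved with the level. In cells thinned to 2000 UMIs, Cd86 was found in 19.1% of cells at 2 weeks (17.4% to 20.9%) and in 31.0% at 8 weeks (29.5% to 32.6%). The unthinned shares were 48.1% and 64.6%. Icosl was found in 3.51% (2.76% to 4.40%) and 10.3% (9.36% to 11.4%) of thinned cells, and Cd274 in 11.4% (10.1% to 12.9%) and 6.34% (5.57% to 7.19%). Unthinned, Icosl was found in 11.1% and 30.3% and Cd274 in 28.4% and 21.4% of cells. These shares come from 1 random thinning, and no direction is drawn from them for Cd83 or Cd24a. The intervals cover counting error only, and shares of cells are not given for all genes. Cd80 was found in 0.433% (0.198% to 0.821%) and 1.14% (0.816% to 1.54%) of thinned cells and in 3.18% and 7.20% of unthinned ones. Pdcd1lg2 gave 1.01% and 2.99% thinned and 3.66% and 11.5% unthinned. Of the genes within 1.5-fold, Cd40 was in 9.73% and 11.6% of thinned cells, Cd83 in 56.1% and 51.4%, Cd69 in 47.4% and 40.4%, and Cd24a in 39.8% and 35.97%.

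**Figure D1:**
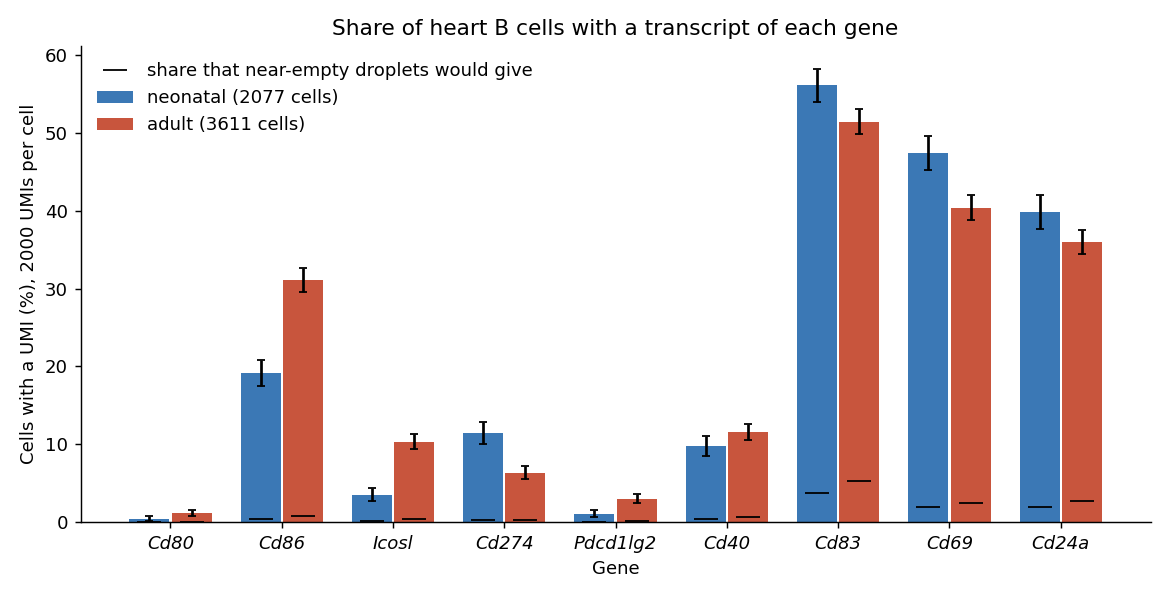
Share of heart B cells with at least 1 UMI of each gene (y axis, percent) after each cell was thinned to 2000 UMIs, in the neonatal (2077 cells) and adult (3611 cells) library. Error bars are exact 95% intervals of counting error. Black ticks are the share that the RNA of a near-empty droplet would give at its mean of 55.9 (neonatal) or 92.0 (adult) UMIs. Cd86 and Icosl bars are taller in the adult and the Cd274 bar in the neonatal library.

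Free RNA was read from the 45000 near-empty droplets of each library, with means of 55.9 and 92.0 UMIs. A droplet of that RNA would show Cd83 in 3.81% of neonatal and 5.29% of adult cases, Cd69 in 1.90% and 2.50%, and Cd24a in 1.94% and 2.75%. For Cd80 it would give 0.0244% and 0.0578%, and for Icosl 0.115% and 0.399%. Each of these lay below the thinned share of the same gene. In the near-empty droplets Cd86 stood at 65.2 and 81.6 CPM and Icosl at 20.7 and 43.5 CPM. Droplets with T cell markers and no Cd79a numbered 3 at 2 weeks and 4 at 8 weeks, with medians of 5939 and 7430 UMIs. Of the 4 adult ones, 1 had a Cd86 UMI, 1 a Cd40 UMI and 3 a Cd69 UMI, the last a gene that T cells carry themselves. So few droplets cannot set a background share.

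**Figure D2:**
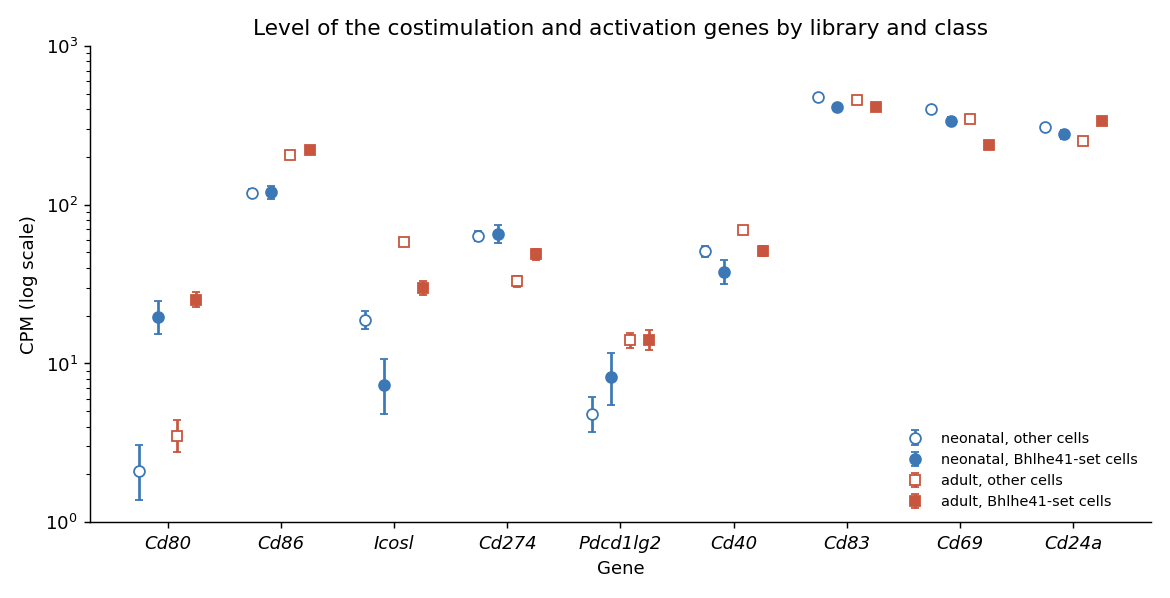
Level of each gene (y axis, CPM on a log scale) in the other cells (open symbols) and the Bhlhe41-set cells (filled symbols) of the neonatal (circles) and adult (squares) library, with exact Poisson 95% intervals. The filled Cd80 symbols lie far above the open ones in both libraries, and the filled Icosl symbols lie below them.

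Bhlhe41-set cells were next compared with the other cells of the same library. In the neonatal library 2 genes were more than 1.5-fold higher (Cd80 and Pdcd1lg2) and 1 lower (Icosl), where 9.42% of 9250 genes were higher and 13.2% lower (22.6% in all). In the adult library 1 was higher (Cd80) and 1 lower (Icosl), where 7% of 10153 genes were higher and 5.57% lower (12.6% in all). Under median-of-ratios scaling Cd274 joined Cd80 on the higher side in the adult library, so that 2 were higher and 1 lower. The share of all genes under that scaling is not given. Over the 9 genes the median log2 ratio was -0.15 among neonatal cells and 0.01 among adult cells, beside -0.10 and -0.05 for all genes. Cd80 and Icosl were thus past 1.5-fold in the same direction in both libraries.

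Cd80 stood at 19.7 CPM (15.4 to 24.9, 70 UMIs) in neonatal Bhlhe41-set cells and at 2.10 (1.38 to 3.06, 27 UMIs) in the other neonatal cells, of which 7 UMIs, or 25.9%, came from 1 cell. In the adult library it stood at 25.3 (22.6 to 28.2, 321 UMIs) and 3.51 (2.77 to 4.39, 77 UMIs). The log2 ratios were 3.23 (2.57 to 3.93) and 2.85 (2.49 to 3.23), a 9.37-fold and a 7.20-fold higher level. Both libraries thus placed most Cd80 UMIs in the class, which held 21.7% of the neonatal and 36.7% of the adult UMIs of all genes. With the class taken from thinned cells, it held 8 of the 97 neonatal and 42 of the 398 adult Cd80 UMIs. Without the shared barcodes the log2 ratios for the unthinned class were 3.15 and 2.93. Among cells of 8000 to 20000 UMIs, where depths of the classes are closer, they were 2.00 and 2.42, and with the class taken from thinned cells 1.57 and 2.03. At no more than 5% mitochondrial UMIs, which left 12 neonatal cells of the class, they were 0.22 and 3.41.

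Icosl went the other way, at 7.32 CPM (4.78 to 10.7, 26 UMIs) in the Bhlhe41-set and 18.8 (16.5 to 21.4) in the other neonatal cells. In the adult library it stood at 29.9 (27.0 to 33.1) and 58.0 (54.9 to 61.3). The log2 ratios were -1.36 (-2.01 to -0.78) and -0.95 (-1.12 to -0.79), and -1.17 and -1.03 without the shared barcodes. Cd40 was lower in the class by the same amount in both libraries, at 37.7 against 50.9 and at 51.1 against 69.1 CPM, with log2 ratios of -0.43 (-0.71 to -0.16) and -0.43 (-0.57 to -0.30). Cd86, the partner of Cd80, did not share its pattern. Its levels were 119.9 and 119 CPM among neonatal cells and 223 and 207 among adult cells, for log2 ratios of 0.01 (-0.15 to 0.17) and 0.10 (0.04 to 0.17).

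Cd274 stood at 65.6 CPM in the Bhlhe41-set and 63.4 in the other neonatal cells, and at 48.9 and 32.9 in the adult library. The log2 ratios were 0.05 (-0.17 to 0.26) and 0.57 (0.42 to 0.73), and the second lay just inside 1.5-fold. Pdcd1lg2 had 29 UMIs in the neonatal class. Its log2 ratio there was 0.76 (0.07 to 1.42) but -0.97 with each cell thinned to 2000 UMIs, where 1 cell of the class held a UMI. In the adult library it was 0.01 (-0.26 to 0.28), and no direction is given for Pdcd1lg2 in the class. Cd83 was at 410 against 475 and 413 against 457 CPM, and Cd69 at 336 against 399 and 237 against 347. Their log2 ratios were -0.21 and -0.15 for Cd83 and -0.25 and -0.55 for Cd69.

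Cd24a differed between the libraries in its direction. In neonatal cells it stood at 278 CPM (261 to 296) in the Bhlhe41-set and 308 (298 to 318) in the other cells, and in adult cells at 337 (327 to 347) and 250.5 (244 to 257). The log2 ratio was -0.15 (-0.25 to -0.05) in the neonatal and 0.43 (0.37 to 0.48) in the adult library. Without the shared barcodes it was -0.39 and 0.46. The difference between the libraries was not tested, since there is 1 library per age.

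**Figure D3:**
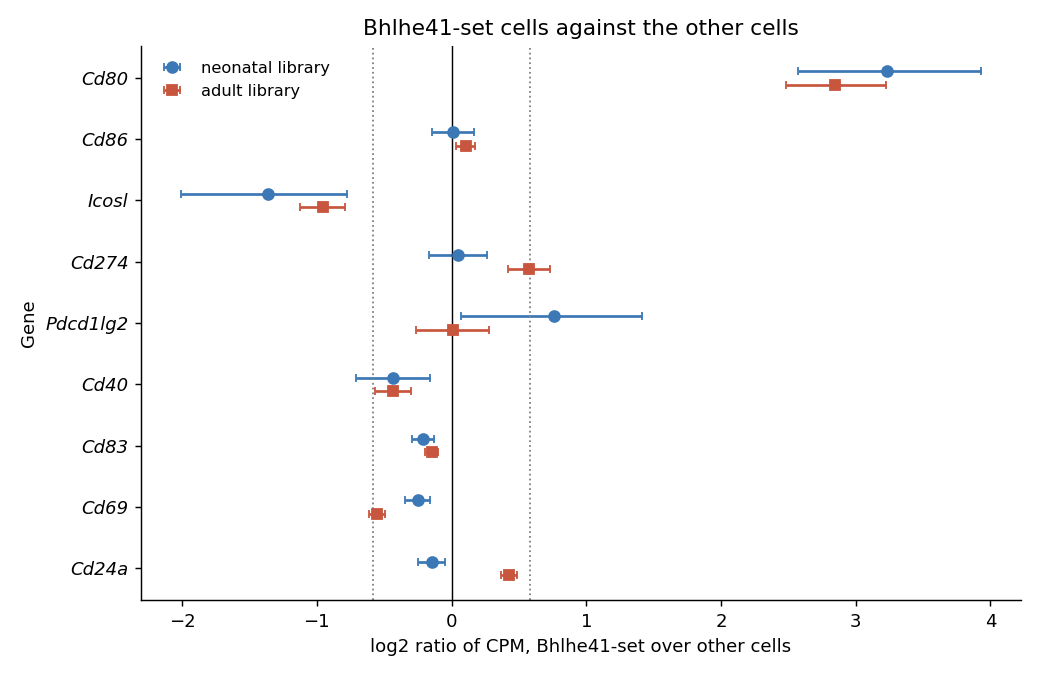
The log2 ratio of CPM in Bhlhe41-set over other cells (x axis) for each gene in the neonatal (circles) and adult (squares) library, with exact 95% intervals of counting error and dotted lines at 1.5-fold. Cd80 lies far to the right and Icosl to the left in both libraries, and the Cd24a symbols lie on opposite sides of 0.

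RNA of other cell types differed between the classes and is given beside these ratios. The 7 T cell markers summed to 20.5 CPM in the Bhlhe41-set and 5.53 in the other neonatal cells, and to 17.2 and 6.89 in the adult library. The 4 plasma cell markers summed to 326 and 95.1 CPM in the neonatal library and to 109 and 218 in the adult library, higher in the class at 2 weeks and lower at 8 weeks. The part of these transcripts in the ratios was not tested. The 8 macrophage and monocyte markers summed to 125 CPM in neonatal Bhlhe41-set cells and 84.8 in the other neonatal cells, and to 15.8 and 17.4 in the adult library. The 4 neutrophil markers summed to 63.3 and 17.1 in the neonatal library, and 3 of them were at 0 in the adult cells. The 8 dendritic cell markers summed to 4.50 and 12.1 among neonatal cells and 5.67 and 7.57 among adult cells, and Clec9a was at 0 in both. When the 39 neonatal and 59 adult cells with at least 2 markers of another cell type were left out, the log2 ratio of Cd80 was 3.38 and 2.76 and that of Icosl -1.67 and -0.96. Among droplets without Cd79a, 6 neonatal ones had macrophage markers, and 4 of these held 25 Cd83 UMIs between them.

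With the class taken into account, age was compared within each. In the other cells the same 4 genes were higher in adults and Cd274 lower, where 7.78% of 10147 genes were higher and 12% lower (19.7% in all). In the Bhlhe41-set cells 3 were higher (Cd86, Icosl and Pdcd1lg2) and 0 lower, where 7.8% of 9234 genes were higher and 11.6% lower (19.4% in all). Over the 9 genes the median log2 ratio was 0.44 in the other and 0.36 in the Bhlhe41-set cells, beside -0.14 and -0.09 for all genes. Without the shared barcodes, which left 132 neonatal and 541 adult Bhlhe41-set cells, 4 were higher with Cd80 added at 0.63, and Cd69 was lower at -0.68. The share of all genes without those barcodes is not given.

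Cd86 and Icosl were higher in adults in both classes. Cd86 gave log2 ratios of 0.80 (0.72 to 0.89) in the other and 0.89 (0.75 to 1.04) in the Bhlhe41-set cells, and Icosl 1.62 (1.42 to 1.83) and 2.03 (1.46 to 2.67). Cd40 gave 0.44 in both classes. Cd80 gave 0.74 (0.09 to 1.43) in the other cells and 0.36 (-0.02 to 0.75) in the class, wide intervals that leave the age gap of Cd80 within a class unclear. Cd274 gave -0.95 (-1.09 to -0.80) and -0.42 (-0.64 to -0.20). Its value in the class was 0.19 with each cell thinned and 0.38 with the class taken from thinned cells, so no direction is given for it there. Pdcd1lg2 gave 1.54 (1.14 to 1.95) and 0.79 (0.22 to 1.41). Cd69 was at -0.20 and -0.51, and Cd83 at -0.06 and 0.01. Cd24a was at -0.30 (-0.36 to -0.24) in the other and 0.28 (0.18 to 0.38) in the Bhlhe41-set cells. The latter value ran from -0.37 in cells of 4000 to 8000 UMIs to 1.48 with the class taken from thinned cells.

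**Figure D4:**
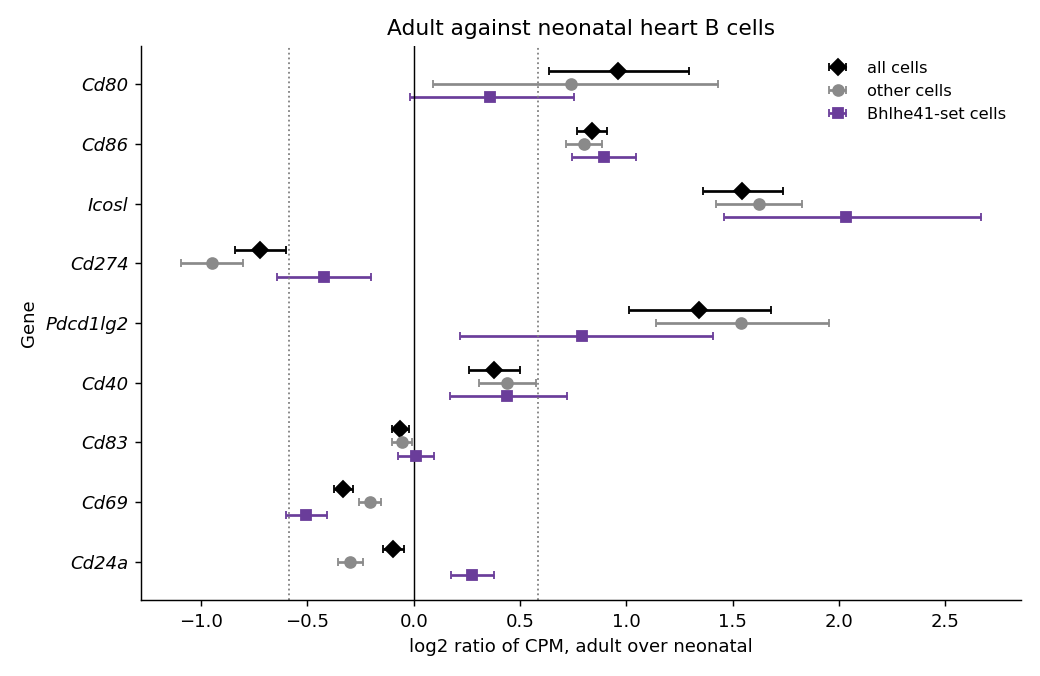
The log2 ratio of CPM, adult over neonatal (x axis), for each gene in all cells (diamonds), the other cells (circles) and the Bhlhe41-set cells (squares), with exact 95% intervals of counting error and dotted lines at 1.5-fold. Cd86, Icosl and Pdcd1lg2 lie right of the upper dotted line in all 3 sets of cells, Cd274 lies left of 0 in all 3 as plotted, and Cd24a changes side between the classes.

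The class genes were then counted in cells thinned to 2000 UMIs, while levels were taken from all UMIs. The cells that held 3 or more after thinning were still deeper before it, with medians of 18211 UMIs in neonatal and 13863 in adult cells. Cd80 was higher the more of them were found in adult cells, from 2.86 CPM (2.14 to 3.74) in 2541 cells with none of the 6 genes to 16.6 (14.3 to 19.2) with 1, 28.4 (23.7 to 33.9) with 2 and 41.4 (28.3 to 58.4) with 3. In neonatal cells it was 1.84 (1.12 to 2.84) with none, 11.1 (7.90 to 15.2) with 1, 19.5 (13.1 to 27.8) with 2 and 13.8 (5.05 to 30.0) with 3, the last over 22 cells and 6 UMIs. The steps count genes left after thinning, so a cell at 1 gene can hold more of them in all its UMIs. Adult cells at 1 gene held 178 Cd80 UMIs, against 77 in all adult cells outside the unthinned class. In the neonatal library these numbers were 39 and 27. The Cd80 level of cells with a single class gene is therefore not given by these steps. Icosl stood at 57.2, 41.7, 26.6 and 34.9 CPM over the same steps in adult and at 19.1, 12.5, 9.08 and 4.59 in neonatal cells. Cd69 went from 338 to 229 in adult and from 396 to 292 in neonatal cells. Cd24a went up from 233 to 359 CPM in adult and down from 320 (309 to 331) to 131 (99.1 to 170) in neonatal cells, the last again over 22 cells.

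**Figure D5:**
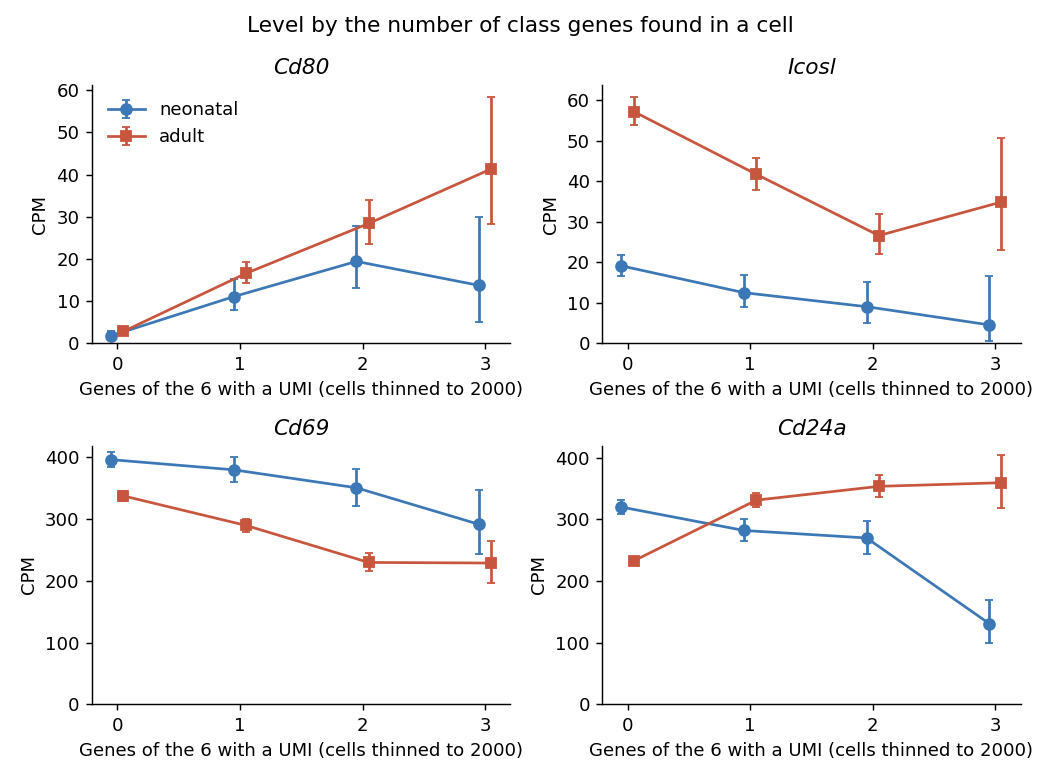
Level (y axis, CPM) of Cd80, Icosl, Cd69 and Cd24a in cells with 0, 1, 2 or 3 of the 6 class genes after thinning to 2000 UMIs (x axis), with exact Poisson 95% intervals, in the neonatal (circles) and adult (squares) library. Cd80 climbs from 2.86 to 41.4 in the adult library, and Cd24a runs in opposite directions in the libraries; cells with 4 or more of the genes (3 neonatal and 13 adult) are not drawn.

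The receptors CD21 (Cr2) and CD23 (Fcer2a) divide mouse B cells by maturity, and the cells outside the thinned class were sorted by their transcripts after thinning. The thinned class held 25 of the 177 neonatal and 62 of the 580 adult Bhlhe41-set cells, so the rest fall among the cells sorted here. Icosl was highest in adult cells with both, at 68.6 CPM in 313 cells, then 57.6 with Fcer2a only, 52.4 with Cr2 only and 38.8 with neither. The neonatal levels were 16.5 with both (37 cells, 5 UMIs), 24.9 with Fcer2a only, 25.8 with Cr2 only and 13.8 with neither. Each was below every adult level. The neonatal intervals with both (5.36 to 38.5) and with Cr2 only (15.3 to 40.8) reached that of adult cells with neither (35.9 to 41.9). Cd86 was likewise lower in each neonatal class, at 108 to 152 CPM, than in any adult class, at 174 to 252. Cd40 stood at 85.9 in neonatal (56.1 to 126, 26 UMIs) and 76.9 in adult cells with both transcripts. In cells with neither, Cd40 was at 46.0 and 58.5.

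Cd274 was 42.9 to 70.0 CPM in the 5 neonatal classes and 31.2 to 61.8 in the 5 adult ones, so these ranges overlap. Within each library its level in cells with neither transcript, 70.0 and 42.4, was above that in cells with Fcer2a only, 46.6 and 31.2. Bhlhe41-set cells remain among the cells sorted here, and in the adult library they carried Cd274 at 48.9 against 32.9 CPM. Their part in this step was not tested. Pdcd1lg2 ran from 3.30 (0.08 to 18.4, 1 UMI) to 8.29 (2.26 to 21.2, 4 UMIs) in neonatal classes. In adult classes it ran from 12.3 (9.05 to 16.3) to 22.7 (14.2 to 34.3), so the intervals overlap. Cd83 and Cd69 were highest in neonatal cells with both transcripts, at 670 and 479, and Cd69 was lowest in the adult thinned class, at 241. Cd80 was 4.33 in adult cells with both and 14.7 in adult cells with neither. The latter held 252 Cd80 UMIs, against 77 in all adult cells outside the unthinned class. Their Cd80 level therefore includes Bhlhe41-set cells, and a link of Cd80 to Cr2 and Fcer2a outside the class was not tested.

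Over these 10 sums of a library and a class, Cd86 ran closest to Icosl among the 9 genes (Pearson r of log2 levels 0.87), Cd83 to Cd69 (0.79), and Cd80 ran against Cd69 (-0.90). The sums of a library share its depth and preparation, so these values only describe. The neonatal sum with both Cr2 and Fcer2a holds 1 UMI each of Cd80 and Pdcd1lg2. Among 5362 genes of at least 20 CPM, the pattern of Cd80 was most like that of Ptpn22 (0.97), Il5ra (0.96) and Aprt (0.94). Icosl ran with Lmo2 (0.99), Helz2 (0.98) and C730034F03Rik (0.98), and Cd86 with Cd52 (0.98), Tespa1 (0.98) and Lcp1 (0.97). Cd40 ran with Prdx6 (0.98), Map2k1 (0.98) and Epb41 (0.97), Cd274 with Ctsz (0.94), Iglc1 (0.92) and Dusp10 (0.90), and Cd83 with Zc3h12a, Ppp1r12a and Prkar1a (each 0.92). Pdcd1lg2 ran with Hist1h2bc (0.97), Gm10073 (0.96) and Rps9 (0.96), Cd69 with Rbm5, Wdr20 and Kmt2d (each 0.96), and Cd24a with Arhgap24 (0.95), Cdkn2aipnl (0.92) and Ap1s2 (0.92).

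Inside single cells the genes were found together about as often as their shares alone would give. Of the 36 pairs, 25 had at least 5 expected cells in each library, and the cells with both divided by the expected number had medians of 0.982 in neonatal and 1.02 in adult thinned cells. The pair furthest above was Cd86 with Icosl in neonatal cells, at 20 cells against 13.95 expected (1.43), while adult cells gave 1.002. Cd40 with Cd274 gave 1.17 in both libraries, and Cd86 with Cd274 gave 1.21 and 1.13. The pair furthest below was Cd86 with Cd40 in neonatal cells, at 26 cells against 38.6 expected (0.673), and adult cells gave 1.02. Co-detection of these genes was thus weak, and in counts this sparse it is no finding.

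The neonatal pool allowed males and females to be set side by side in 1 library, through Y-linked transcripts and Xist. Cells without a clear call were left out, and how many mice of each sex were pooled is not stated. Cd80 was at 7.33 CPM in 1279 male cells (78 UMIs) and 2.31 in 323 female cells (5 UMIs), a log2 ratio of 1.66 (0.38 to 3.33). Of the 97 neonatal Cd80 UMIs 70 lay in Bhlhe41-set cells, and the share of that class in each sex is not given. Cd274 was at 65.7 and 49.96, a log2 ratio of 0.39 (0.10 to 0.70), and the other 7 genes lay between -0.18 and 0.70. With male neonatal cells alone, the log2 ratio of adult over neonatal was 0.65 for Cd80, 0.80 for Cd86, 1.43 for Icosl, -0.76 for Cd274 and 1.22 for Pdcd1lg2.

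A further difference between the libraries was the interferon response. Its 8 genes were each more than 1.5-fold higher in adult cells, where 7.82% of all genes were higher. Their sum was 48.9 CPM in neonatal and 256 in adult cells, and their median log2 ratio was 2.77. Cells with at least 3 of them numbered 28 at 2 weeks and 325 at 8 weeks. In the adult library these cells carried Cd86 at 261 against 200.5 CPM in the rest, Cd274 at 56.6 against 34.2 and Cd80 at 17.4 against 9.98. Cd69 and Cd24a were also higher in them, and Cd83 was lower at 400 against 451. The intervals of Cd40, Icosl and Pdcd1lg2 reached both directions. Median depth of these adult cells was 14556 UMIs against 5574.5 in the rest, and their share of Bhlhe41-set cells is not given. In the 28 neonatal ones Cd86 was at 93.2 against 120, Cd274 at 84.2 against 63.5, and no Cd80 UMI was found. Without such cells the log2 ratio of adult over neonatal was 0.75 for Cd86, 1.57 for Icosl, -0.89 for Cd274 and 0.73 for Cd80. The ratios of these 4 genes kept their direction, and the part of the interferon response in them was not tested.

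Other genes of the costimulatory pathways were read from fixed lists. Of the 13 other B7 and CD28 family genes, 3 had at least 50 UMIs, and 1 of these was lower in adults, the inhibitory receptor gene Vsir (12.6 to 7.60 CPM). Of the 12 TNF superfamily genes, 6 were measured at that depth. The CD30 ligand gene Tnfsf8 (0.853 to 6.01) and Fas (1.95 to 5.83) were higher in adults and the CD30 gene Tnfrsf8 (3.29 to 1.88) was lower. Of the 6 CD40 adaptor genes, Traf1 (24.4 to 107, a log2 ratio of 2.14) and Tank (44.6 to 68.9) were higher and none lower. Of 7 SLAM and CD2 family genes, Cd2 was lower (458 to 223). The 2 measured partners of CD24 were within 1.5-fold. The lists had medians of -0.32, 0.14, -0.14, -0.04 and -0.32 in this order, beside -0.13 for all genes. Of all genes 7.82% were higher and 12.2% lower, and counts in lists this short are given as a description.

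Of 13 activation markers 5 were lower in adults, 1 was higher and 7 were within 1.5-fold, with a median log2 ratio of -0.26 beside -0.13 for all genes, of which 12.2% were lower. The transferrin receptor gene Tfrc went from 55.7 to 20.7 and the adhesion gene Icam1 from 47.5 to 21.0 CPM, and Basp1 (0.914 to 2.48) and Slc7a5 (7.86 to 4.30) were the others furthest from 0. Of 14 immediate-early genes, which respond within minutes to activation and also to tissue digestion, 6 were lower and none higher, with a median of -0.38 and a sum of 8397 in neonatal and 6436 CPM in adult cells. Atf3 (218 to 102), Fosb (300.1 to 151), Egr3 (106 to 60.6) and Zfp36 (348 to 201) were furthest. These sums moved in the direction of Cd69 and Cd274, and their part in those ratios was not tested.

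In the Bhlhe41-set cells, 3 of the other B7 and CD28 family genes had at least 50 UMIs in the comparison of each library. Of these, 2 were higher and 1 lower in the neonatal library, and 1 higher and 0 lower in the adult library. The TNF superfamily list held 1 higher and 1 lower of 3 genes at that depth, then 2 and 0 of 5. The CD40 adaptors held 1 and 1, then 1 and 0, of 6 genes in each library. The SLAM and CD2 family held none in either direction of 7 genes in each. These counts stand beside the shares of all genes given above for this comparison. Lower in the neonatal class were Btla (80.8 against 141 CPM), an inhibitory receptor gene, Cd27 (10.7 against 16.7) and Traf5 (45.6 against 77.2). Tnfrsf8 had 52 of its 54 neonatal and 58 of its 65 adult UMIs in the class, at 14.6 against 0.156 and 4.57 against 0.319 CPM. Tnfsf8 stood at 15.4 against 0.593 in the adult library. Vsir was at 23.4 against 9.57 and 11.5 against 5.34, and Traf1 at 64.7 against 13.2 and 141 against 87.9. Among activation and immediate-early genes, Cd44, an adhesion receptor of activated lymphocytes, was at 209 against 69.1 and 97.4 against 47.6, and Atf3 at 510.1 against 137 and 191 against 50.8. Il2ra, a part of the interleukin 2 receptor, was at 4.78 against 2.57 and 2.99 against 1.96, with intervals of the log2 ratio that reached -0.04 and -0.06. Of the activation markers 5 were higher and 2 lower in the neonatal class, out of 12 with at least 50 UMIs. In the adult class 2 were higher and 2 lower out of 13. The median log2 ratios were 0.46 and -0.01. Of the immediate-early genes 4 were higher and 1 lower in the neonatal class, and 1 higher and 0 lower in the adult class, with medians of 0.33 and -0.05. All genes were higher in 9.42% and lower in 13.2% of cases at 2 weeks, and in 7% and 5.57% at 8 weeks.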

How the data were processed

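The authors sorted the cells, aligned the reads to mm10 and deposited raw counts of UMIs per gene and droplet, unfiltered and without normalization. The Methods name Cell Ranger 3.1.0 and the file headers Cell Ranger 3.0.2. The antibody features held 3 and 2 UMIs and were not used. Counts were summed over the cells of a library or class, each 1 sample without replicates, and divided by their total (CPM); ratios carry exact conditional binomial intervals, levels exact Poisson and shares exact Clopper-Pearson intervals at 95%. No test was run, since cells are not replicates. A gene was named higher or lower past 1.5-fold with at least 50 UMIs over both groups. The 9 genes and all lists were chosen with earlier results of these data known. From each list the 4 genes with the largest ratio among those past 1.5-fold were to be named, and for likeness the 3 with the highest correlation, leaving out the class genes, Cr2 and Fcer2a. In the class comparison, the list genes past 1.5-fold the same way in both libraries were named after their values were seen, with Tnfsf8 added and 1 item not reported here. The band of 8000 to 20000 UMIs and the fixed class share were chosen after seeing the data. Cells were thinned at random with 1 fixed seed. Doublets were not called in the counts. The Methods state that doublets were excluded at the sort, which came before the cells were captured in droplets. Coordinates are from GENCODE M21 (GRCm38), which matched 99.6% of gene IDs. Python 3.11.15, numpy 2.4.6, scipy 1.17.1, pandas 2.3.3 and matplotlib 3.10.9 were used. On simulated counts of 10703 genes with 200 changed between adult and neonatal, 100% of the changed genes had the right sign, and 96.5% of them and 95.4% of the rest had intervals that held the simulated ratio. The simulation drew counts with the counting error that the intervals assume and without variation between cells, mice or libraries. It therefore checks the calculation only and says nothing of the spread in the real data.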

Additional observations from a re-analysis of the deposited data

Results flagged for a closer look

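Cd24a ran in opposite directions between the classes of the libraries. Its log2 ratio of Bhlhe41-set over other cells was -0.15 at 2 weeks and 0.43 (0.426932 unrounded) at 8 weeks, with both intervals off 0. The difference was not tested, as each age has 1 library. The neonatal value was -0.39 without the barcodes shared by the libraries and -0.49 in cells of 8000 to 20000 UMIs, against 0.46 and 0.39 in the adult library. It was lowest, at -1.23, with the class taken from thinned cells, which left 25 neonatal cells of the class. Closer to 0 were the neonatal values under median-of-ratios scaling (-0.06) and at a minimum of 5000 UMIs (-0.05). In cells of 4000 to 8000 UMIs, where the class held 4 cells, the neonatal value was 0.71. The adult value lay between 0.23 and 0.70 in all 17 settings.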

How the results depend on the processing

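The number of genes past 1.5-fold changed by more than 1.5 times under some settings. Shares over all genes are given only for the main settings of the Results. The counts below therefore cannot be set beside those of all genes. For adult against neonatal, 5 genes became 2 at 2-fold, over all cells and over the other cells alike. For the Bhlhe41-set cells across ages, 3 became 5 without the barcodes shared by the libraries, 5 without the 5% of cells with most UMIs, 1 at 2-fold and 0 in cells of 4000 to 8000 UMIs (4 neonatal and 22 adult cells). It was 6 in cells of 8000 to 20000 UMIs, a range chosen after seeing the data. For the class in the neonatal library, 3 became 5 with the class taken from thinned cells, 1 with at least 200 UMIs and 1 in cells of 8000 to 20000 UMIs. For the class in the adult library, 2 became 4 at no more than 5% mitochondrial UMIs, 4 without the 5% of cells with most UMIs, 4 with at least 4 class genes, 5 with the class from thinned cells, 5 as a mean over cells and 1 at 2-fold. Of 45 ratios of single genes, 27 kept their sign in every setting and 18 did not. Of those past 1.5-fold, 3 changed direction: Cd80 across ages was -0.93 in all and -2.68 in the other cells at no more than 5% mitochondrial UMIs, which left 60 neonatal and 156 adult cells, and Pdcd1lg2 in the neonatal class was -0.97 in thinned cells. The cause was not tested. Cd86, Icosl, Cd274 and Pdcd1lg2 kept their direction across ages over all cells in all 16 settings, over 0.72 to 0.99, 1.32 to 1.70, -1.13 to -0.57 and 1.13 to 1.59. No paired analysis was possible because each age has 1 library. Depth limits Cd80, Pdcd1lg2 and the neonatal Icosl class value, which rest on under 100 UMIs in the neonatal library.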
